A study of Homo sapiens with 12 samples.

Results

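The 10 genes listed here as markers of mammary stem and progenitor cells, 3 of them in the ALDH1A family, were measured by RNA sequencing in SUM149PT cells. SUM149PT is an established line from an inflammatory breast cancer. The members were listed by name, as ALDH1A1, ALDH1A2, ALDH1A3, CD44, CD24, PROM1, EPCAM, PROCR-AS, MME and THY1. Of these 10, 9 had a line among the 23228 genes of the count files and 6 had enough counts to be tested. PROCR-AS was not found under its own symbol and has no value here. The design had 4 groups of 3 libraries, which carry the letters A, B and C. Cells of the combination group received 5 µM tazemetostat and 5 µM ipatasertib, cells of the tazemetostat and ipatasertib groups received 5 µM of that agent, and the remaining group received DMSO. Tazemetostat inhibits EZH2, the histone methyltransferase of the PRC2 repressor, and ipatasertib inhibits the AKT kinases. Tazemetostat was given from day -5, and ipatasertib for the last 24 h, in medium with 2% serum that all groups shared, so the exposures to each agent differed in length. All libraries are from 1 line. Whether replicates were separate cultures is not stated, so the p-values reflect only how far these libraries varied, and part of that variation may be technical.

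Enzymes of the ALDH1A family oxidise retinaldehyde to retinoic acid, a hormone-like ligand of nuclear receptors, and their activity is widely used to sort mammary cells with stem-like properties. The surface proteins serve the same purpose by antibody. Breast cancer cells with high CD44, the receptor for the matrix sugar hyaluronan, and low CD24, a small mucin-like glycoprotein, have been described as tumour-initiating. EPCAM separates luminal from basal mammary cells, MME (CD10) marks myoepithelial cells, and PROM1 (CD133) and THY1 (CD90) are used as stem cell markers in several tissues. RNA was measured here, not surface protein or enzyme activity, and counts per gene do not separate the splice forms of CD44.

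Promoter sequences are shown for ALDH1A3, ALDH1A1 and CD44, because the first pair moved in opposite directions with tazemetostat and CD44 was called against DMSO in the combination and with neither inhibitor by itself. Of the 10 members, 7 had a promoter in the RefSeq table of GRCh38.p14, and these 3 had a single annotated start each. The window is the 250 bases upstream of that start, with each CG dinucleotide, the site of DNA methylation, in capitals. The stretches lie at chr15:100879581-100879830 on the plus strand for ALDH1A3, chr9:72953054-72953303 on the minus strand for ALDH1A1 and chr11:35138921-35139170 on the plus strand for CD44.
ALDH1A3: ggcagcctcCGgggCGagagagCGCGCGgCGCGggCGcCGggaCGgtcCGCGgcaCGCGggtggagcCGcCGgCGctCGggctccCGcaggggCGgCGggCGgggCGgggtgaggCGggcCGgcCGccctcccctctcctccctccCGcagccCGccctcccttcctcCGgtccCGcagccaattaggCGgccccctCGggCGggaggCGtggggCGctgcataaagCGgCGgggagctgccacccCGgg
ALDH1A1: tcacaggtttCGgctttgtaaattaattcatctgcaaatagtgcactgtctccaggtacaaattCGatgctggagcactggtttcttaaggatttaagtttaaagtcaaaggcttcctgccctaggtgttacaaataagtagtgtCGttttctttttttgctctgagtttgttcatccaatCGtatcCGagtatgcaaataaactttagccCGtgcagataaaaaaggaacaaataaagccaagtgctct
CD44: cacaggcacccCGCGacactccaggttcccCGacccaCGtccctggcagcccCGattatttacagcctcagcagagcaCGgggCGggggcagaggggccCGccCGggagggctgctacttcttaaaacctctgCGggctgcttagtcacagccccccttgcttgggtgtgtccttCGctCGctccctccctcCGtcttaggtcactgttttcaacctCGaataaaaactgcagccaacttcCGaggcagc
ALDH1A3 held 38 CG dinucleotides in its window, a count matched or passed by 3.28% of the 35116 windows in that table. The ALDH1A1 window held 6, as many or more being found in 61.9% of windows, and the CD44 window held 15, as many or more being found in 42.9%. The median over all windows was 11. The search was for the letters CG, which read the same on both strands, and no chromatin or DNA methylation was measured.

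Gene counts summed to between 22355242 and 49970540 per library. Reads assigned to no gene made up 22.8% to 24.5% in the combination, 17.8% to 18.7% with tazemetostat, 23.9% to 25.7% with ipatasertib and 19.1% to 20.6% under DMSO, so it moved with ipatasertib, and its part in the results was not tested. Within their groups, tazemetostat A and combination B were the most distant libraries: their counts differed from those of the other replicates by a chi-square of 14.4 to 24.9 per degree of freedom, where the remaining replicate pairs had 2.64 to 6.68. Of 8 epithelial markers, EPCAM among them, all exceeded 1 CPM in every group. Of 6 fibroblast markers, 3 exceeded 1 CPM (FAP, LUM and DCN), while the fibroblast receptor PDGFRA had at most 0.0778 CPM as a group mean. Markers of endothelial and blood cells were mostly near 0, and the exceptions above 1 CPM were PECAM1, CD14 and, in the combination, PTPRC. In bulk RNA, fewer cells with a transcript and less of it per cell cannot be told apart.

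Levels are given as TMM-scaled CPM. They are not divided by gene length, so they are not compared between genes. Changes are log2 fold changes from 1 edgeR quasi-likelihood fit of 12 libraries, with an approximate standard error (SE) and Benjamini-Hochberg adjusted p over the 14874 genes tested, called under 0.05. Scaling by total counts instead of TMM moved the median of all genes upward by 0.135 for the combination, 0.071 for tazemetostat and 0.115 for ipatasertib, each against DMSO.

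Of the 6 tested members, 2 were called higher and 2 lower in the combination against DMSO, where 71.0% of all genes were called, 36.5% higher and 34.5% lower. With tazemetostat against DMSO 1 was higher and 2 lower, beside 46.0% of all genes, 25.1% higher and 20.9% lower. With ipatasertib against DMSO 3 were lower, beside 54.1% of all genes, 25.4% higher and 28.7% lower. Many genes of this line changed, so these counts are no result about the members as a group.

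The combination had 2 higher and 2 lower members against ipatasertib, beside 39.1% of all genes (21.8% higher, 17.3% lower). Against tazemetostat it had 1 higher and 2 lower, beside 60.6% (29.8% higher, 30.8% lower). Ipatasertib against tazemetostat had 2 higher and 2 lower, beside 56.3% (24.6% higher, 31.7% lower). In the interaction, which is the combination's change minus the sum of the changes with each inhibitor, 1 of 6 was called, CD44, beside 3.62% of all genes, 1.87% higher and 1.75% lower. The comparisons share libraries and are not independent of each other.

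Groups without overlap between libraries were also common. Against DMSO they were seen for 4 members in the combination (71.9% of all genes), 4 with tazemetostat (55.7%) and 4 with ipatasertib (66.1%). The combination was apart from ipatasertib for 4 members (46.9% of all genes) and from tazemetostat for 4 (59.3%), and ipatasertib from tazemetostat for 5 (63.8%). The median log2 change of the 6 against DMSO was -0.08 in the combination, -0.06 with tazemetostat and -0.09 with ipatasertib, beside 0.02, 0.02 and -0.01 over all genes.

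ALDH1A3, the ALDH1A enzyme most often tied to ALDH activity in breast cancer cells, was higher in both groups that received tazemetostat. Its level was 230, 221 and 229 CPM in combination A, B and C, and 249, 249 and 231 CPM in tazemetostat A, B and C. Ipatasertib A, B and C had 144, 149 and 146 CPM, and DMSO A, B and C had 166, 156 and 161 CPM. Every library with tazemetostat lay above every library without it. ALDH1A3 rose 1.51-fold with tazemetostat against DMSO (log2 change 0.60, SE 0.05, edgeR adjusted p = 3.05e-08) and 1.41-fold with the combination against DMSO (log2 change 0.50, SE 0.05, edgeR adjusted p = 8.69e-08). Adding tazemetostat to ipatasertib gave 1.55-fold more (log2 change 0.63, SE 0.05, edgeR adjusted p = 1.46e-08). The combination differed from tazemetostat by -0.10, with a 95% interval of -0.21 to 0.01, and did not pass.

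With ipatasertib alone ALDH1A3 was lower than under DMSO by a small amount (log2 change -0.14, SE 0.05, edgeR adjusted p = 0.0387). That call was lost in 13 of 19 alternatives, among them scaling by total counts (log2 change -0.02, adjusted p = 0.760). It was also lost without any 1 library of the DMSO or ipatasertib groups, without tazemetostat B or C, and without combination B or C, at adjusted p of 0.0517 to 0.253. The order from high to low was tazemetostat, combination, DMSO and ipatasertib. The neighbours tazemetostat and combination did not differ beyond the test's threshold, and DMSO and ipatasertib differed in that unstable call. RefSeq places the antisense gene ALDH1A3-AS1 over ALDH1A3, and without a stated strand setting its reads cannot be told apart.

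ALDH1A1, the cytosolic retinaldehyde dehydrogenase of the same family, moved the other way with tazemetostat. Combination A, B and C had 3.69, 5.69 and 4.27 CPM, and tazemetostat A, B and C had 3.96, 3.42 and 3.59 CPM. Ipatasertib A, B and C had 6.62, 6.39 and 6.82 CPM, and DMSO A, B and C had 5.18, 5.41 and 5.59 CPM. The tazemetostat libraries were all below the DMSO libraries and the ipatasertib libraries all above them, while combination B alone reached above the DMSO range. ALDH1A1 fell 1.47-fold with tazemetostat against DMSO (log2 change -0.56, SE 0.13, edgeR adjusted p = 0.00165). It was also 1.46-fold lower in the combination than with ipatasertib (log2 change -0.54, SE 0.13, edgeR adjusted p = 0.00271), and 1.81-fold higher with ipatasertib than with tazemetostat (log2 change 0.85, SE 0.13, edgeR adjusted p = 1.33e-05).

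Ipatasertib against DMSO left ALDH1A1 just outside the threshold, at 0.30 with a 95% interval of 0.03 to 0.56 (edgeR adjusted p = 0.0564), and 9 of 19 alternatives placed it inside, with changes of 0.30 to 0.41. The combination against DMSO gave -0.25, with an interval of -0.52 to 0.03 (edgeR adjusted p = 0.0986). Without combination B it was -0.41 (edgeR adjusted p = 0.00612), and without combination A it was -0.14 (adjusted p = 0.365). The combination against tazemetostat gave 0.31, with an interval of 0.03 to 0.59 (edgeR adjusted p = 0.0530), and 7 of 19 alternatives called it. Without 1 library it ranged between 0.17 without combination B (adjusted p = 0.255) and 0.45 without combination A (adjusted p = 0.00688). ALDH1A1 rested on 103 to 264 counts per library, where ALDH1A3 had 3352 to 11525. Over the 12 libraries the log2 CPM of ALDH1A1 and ALDH1A3 had a Pearson r of -0.888, a description that rests on the group differences they share.

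ALDH1A2, the third retinaldehyde dehydrogenase, had 1 count in each combination library and 0 counts in the 9 others. A count of 0 allows up to 3 counts, which came to 0.0602 to 0.130 CPM depending on the library, so no difference was detectable at this depth. That limit covers counting error.

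**Figure D1:**
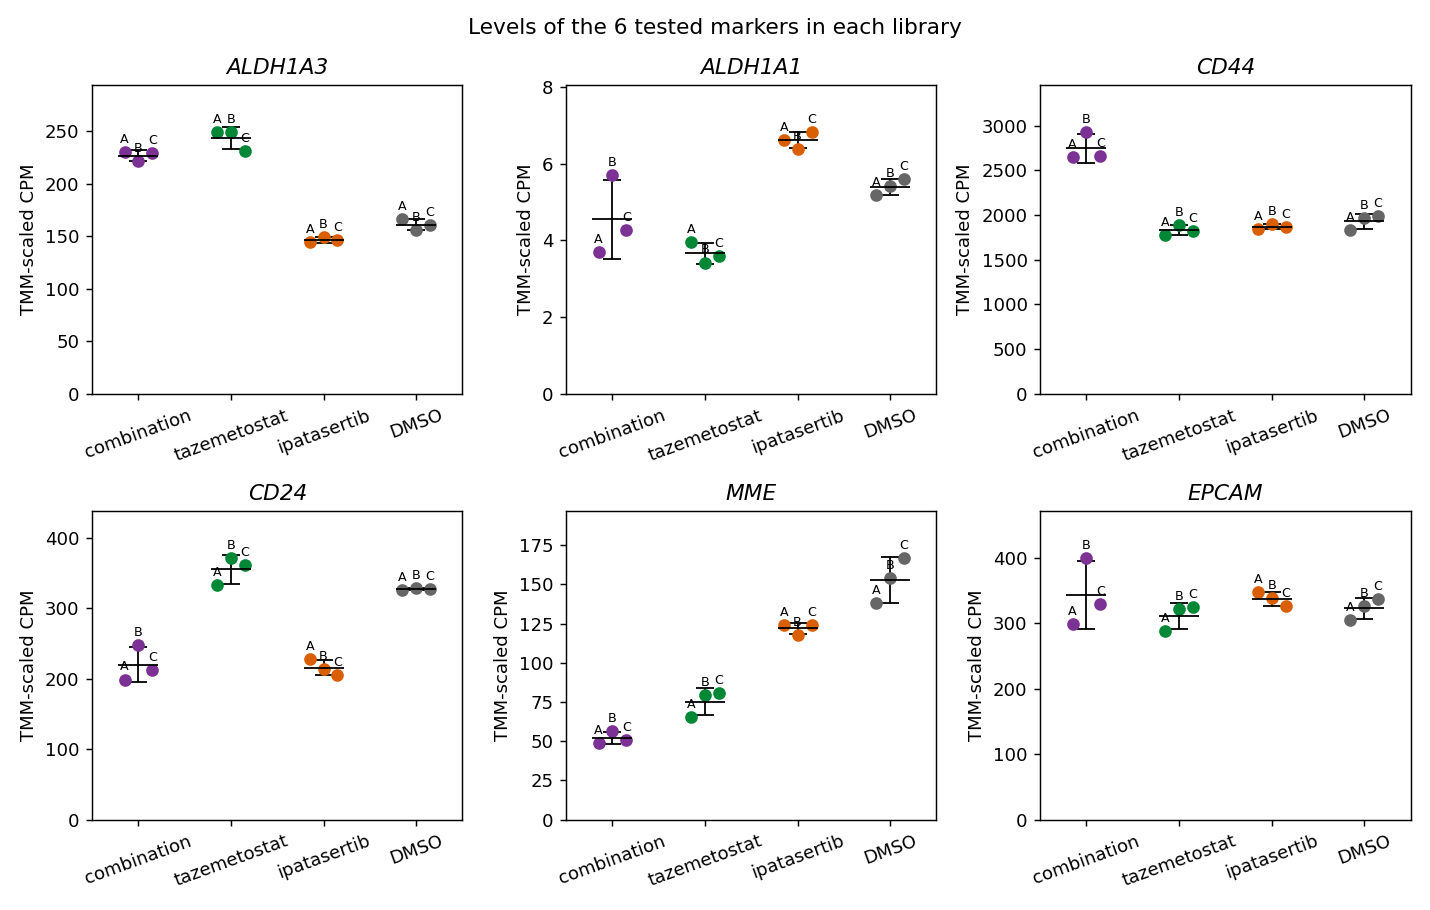
TMM-scaled CPM (linear axis from 0) of the 6 tested markers in each library, with the letter of the replicate beside each point and the group mean ± SD (n = 3) as a black bar. ALDH1A3 was high in both groups with tazemetostat, CD44 was high in the combination, CD24 was low in both groups with ipatasertib, and MME was lowest in the combination.

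CD44 was higher in the combination and near its DMSO level with either inhibitor alone. Combination A, B and C had 2650, 2930 and 2660 CPM, and tazemetostat A, B and C had 1780, 1890 and 1820 CPM. Ipatasertib A, B and C had 1840, 1900 and 1870 CPM, and DMSO A, B and C had 1830, 1970 and 1990 CPM. The 3 combination libraries lay above the other 9, which overlapped each other. CD44 rose 1.42-fold in the combination against DMSO (log2 change 0.51, SE 0.05, edgeR adjusted p = 7.58e-08), 1.47-fold against ipatasertib (log2 change 0.55, SE 0.05, edgeR adjusted p = 1.1e-07) and also against tazemetostat (log2 change 0.58, SE 0.05, edgeR adjusted p = 1.89e-08).

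The single inhibitors changed CD44 by -0.08 with tazemetostat (95% interval -0.19 to 0.04) and by -0.04 with ipatasertib (interval -0.16 to 0.07), each against DMSO, and neither passed. Their sum was -0.12, against 0.51 in the combination. The interaction was 0.63 (SE 0.08, edgeR adjusted p = 7.09e-05), and 6.58% of all genes had a larger one in size. The interaction stayed called in each of 18 alternatives, with values of 0.57 to 0.67, including 0.59 without combination B. CD44 is overlapped by CD44-AS1 in RefSeq, whose reads cannot be told apart.

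CD24 followed ipatasertib. Combination A, B and C had 199, 248 and 213 CPM, and tazemetostat A, B and C had 333, 372 and 362 CPM. Ipatasertib A, B and C had 228, 214 and 206 CPM, and DMSO A, B and C had 326, 329 and 327 CPM. All 6 libraries with ipatasertib lay below all 6 without it. CD24 fell 1.52-fold with ipatasertib (log2 change -0.60, SE 0.07, edgeR adjusted p = 6.62e-07) and 1.49-fold with the combination (log2 change -0.57, SE 0.07, edgeR adjusted p = 4.92e-07), both against DMSO. It was 1.62-fold lower in the combination than with tazemetostat (log2 change -0.69, SE 0.07, edgeR adjusted p = 5.79e-08).

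Between the combination and ipatasertib CD24 differed by 0.03, with a 95% interval of -0.12 to 0.18, and did not pass. Tazemetostat against DMSO gave 0.12 (interval -0.03 to 0.27, edgeR adjusted p = 0.167), although its 3 libraries were above all DMSO libraries. Scaling by total counts made that 0.19 and a call (adjusted p = 0.0268), and leaving out tazemetostat A and combination B made it 0.15 and a call (adjusted p = 0.00661). Without tazemetostat B it was 0.06 (adjusted p = 0.588), and no fit without 1 library called it. The summed level of the 8 epithelial markers also moved with ipatasertib, at 1630 to 1700 CPM in the combination, 2700 to 2980 CPM with tazemetostat, 1730 to 1880 CPM with ipatasertib and 3250 to 3390 CPM under DMSO. The basal keratin KRT5 averaged 54.6 ± 4.15 CPM in the combination, 480 ± 34.6 with tazemetostat, 146 ± 6.11 with ipatasertib and 633 ± 19.8 under DMSO (SD, n = 3 each), while TP63, a basal transcription factor of the same list, averaged 27.2 ± 3.03, 27.9 ± 2.62, 26.1 ± 1.59 and 15.9 ± 2.34 CPM in the same order of groups. CDH1, which is no keratin, averaged 255 ± 3.17, 286 ± 9.22, 239 ± 4.58 and 330 ± 4.49 CPM in that order. EPCAM, also in that list, did not pass in any comparison, so the sum did not move with every marker. The part of these levels in the CD24 result was not tested. RefSeq lists 5 pseudogenes of CD24, so reads may have been split between near-identical copies and its level is uncertain.

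**Figure D2:**
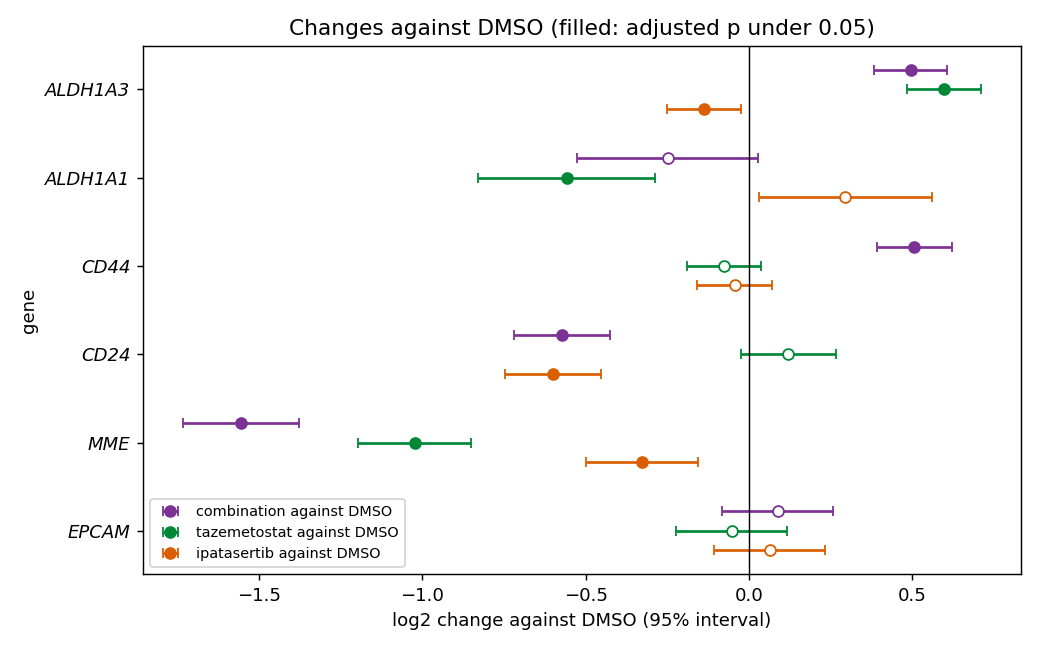
Log2 change of each tested marker in the combination, tazemetostat and ipatasertib groups against DMSO, with 95% intervals from the edgeR fit (n = 3 libraries per group). Filled points had an adjusted p under 0.05. MME lay left of 0 in all 3 groups, and EPCAM crossed 0 in all 3.

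The ratio of CD44 to CD24 within a library does not depend on how libraries are scaled. Its log2 value was 3.73, 3.56 and 3.64 in combination A, B and C and 2.41, 2.35 and 2.33 in tazemetostat A, B and C. In ipatasertib A, B and C it was 3.02, 3.16 and 3.18, and in DMSO A, B and C it was 2.49, 2.58 and 2.60. No library of 1 group fell in the range of another. Against DMSO the mean shifted by 1.08 in the combination, -0.19 with tazemetostat and 0.56 with ipatasertib, and by 1.13 in the combination without library B. An exact permutation test (two-sided) gave p = 0.1 for each of the 6 pairs of groups, 0.1 after Benjamini-Hochberg adjustment over the 6, which is the smallest p that 3 against 3 libraries allow. The absolute value of the ratio has no meaning here, since the levels are not divided by length.

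**Figure D3:**
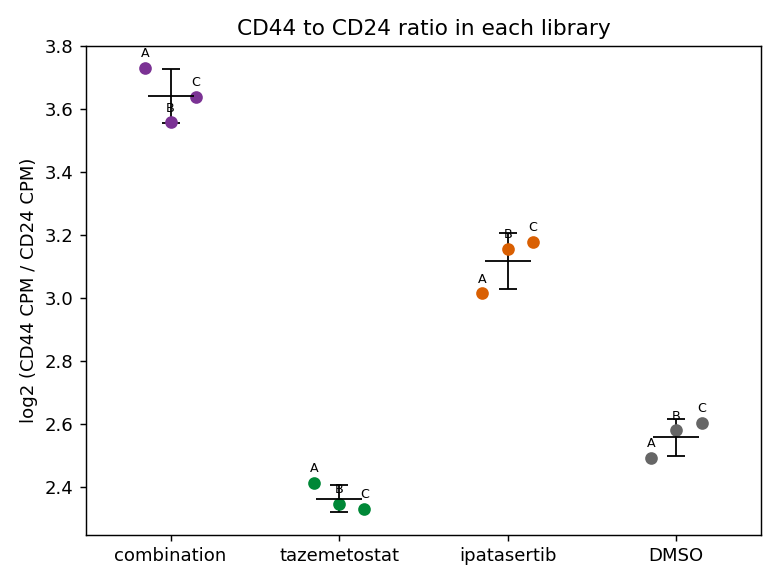
Log2 ratio of CD44 to CD24 CPM in each library, with replicate letters and the group mean ± SD (n = 3) as black bars, on an axis that does not start at 0. The combination libraries sit between 3.56 and 3.73 and the DMSO libraries between 2.49 and 2.60.

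MME, the membrane metallopeptidase neprilysin, which cleaves peptides outside the cell, had the largest change among the members against DMSO in both groups with tazemetostat. Combination A, B and C had 48.9, 56.5 and 50.9 CPM, and tazemetostat A, B and C had 65.3, 79.5 and 81.0 CPM. Ipatasertib A, B and C had 124, 118 and 124 CPM, and DMSO A, B and C had 138, 154 and 167 CPM. The 4 groups did not overlap, and the order from high to low was DMSO, ipatasertib, tazemetostat and combination. MME fell 2.94-fold in the combination (log2 change -1.55, SE 0.09, edgeR adjusted p = 3.83e-12), 2.03-fold with tazemetostat (log2 change -1.02, SE 0.08, edgeR adjusted p = 6.69e-09) and 1.25-fold with ipatasertib (log2 change -0.33, SE 0.08, edgeR adjusted p = 0.00223), each against DMSO. A larger change than that of MME, in size, was found in 9.5% of genes in the combination.

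Each neighbouring pair in that order differed by the test. The combination was 1.45-fold below tazemetostat (log2 change -0.53, SE 0.08, edgeR adjusted p = 1.92e-05), and ipatasertib was 1.62-fold above tazemetostat (log2 change 0.70, SE 0.08, edgeR adjusted p = 6.87e-07). The sum of the single changes was -1.35, against -1.55 in the combination. The interaction of -0.20 (95% interval -0.45 to 0.04) did not pass with all libraries (edgeR adjusted p = 0.372), and without tazemetostat A and combination B it was -0.34 and passed (adjusted p = 0.00177). Without those 2 libraries 31.8% of all genes passed in the interaction, beside 3.62% with all libraries. Without 1 library the interaction of MME did not pass and ranged between -0.28 without tazemetostat A and -0.13 without DMSO A (adjusted p = 0.665). MME is also expressed by fibroblasts. The summed level of the 6 fibroblast markers was 62.9 to 86.0 CPM in the combination and 64.9 to 73.3 CPM with tazemetostat. It was 198 to 205 CPM with ipatasertib and 150 to 175 CPM under DMSO. DCN had the widest span, with means of 30.7, 24.6, 131 and 98.8 CPM in the combination, tazemetostat, ipatasertib and DMSO groups. FAP averaged 40.7, 42.2, 57.0 and 53.3 CPM and LUM 1.93, 1.87, 12.6 and 10.1 CPM in that order. PDGFRA, PDGFRB and COL1A2 averaged below 1 CPM, and PDGFRA and PDGFRB were not lower in the combination than under DMSO. All libraries are from 1 line, so these are levels of such transcripts in that line. Their part in the MME result was not tested.

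EPCAM, the homophilic adhesion protein of epithelial cells, did not pass in any comparison. Combination A, B and C had 299, 400 and 330 CPM, and tazemetostat A, B and C had 288, 321 and 325 CPM. Ipatasertib A, B and C had 347, 339 and 326 CPM, and DMSO A, B and C had 305, 326 and 337 CPM. The groups overlapped except for ipatasertib, whose lowest library was above the highest with tazemetostat, and combination B was the highest of all. Against DMSO the log2 change was 0.09 in the combination (95% interval -0.08 to 0.26), -0.05 with tazemetostat (interval -0.22 to 0.12) and 0.06 with ipatasertib (interval -0.11 to 0.23). Scaling by total counts made the combination a call against DMSO (log2 change 0.22, adjusted p = 0.0170) and against tazemetostat (log2 change 0.20, adjusted p = 0.0314). Without combination A these were 0.17 (adjusted p = 0.0430) and 0.25 (adjusted p = 0.00454), and without combination B they were -0.02 (adjusted p = 0.818) and 0.06 (adjusted p = 0.443). Ipatasertib against tazemetostat, at 0.12 (interval -0.05 to 0.29), was called in 4 of 19 alternatives.

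PROM1 and THY1 were near the limit of detection. Summed over 3 libraries, PROM1 had 15 counts in the combination, 23 with tazemetostat, 4 with ipatasertib and 6 under DMSO, and 15 of the 23 came from tazemetostat A, a library that stands apart. In a fit without a filter on low counts, PROM1 changed by 1.56 with tazemetostat (adjusted p = 0.123) and by 1.47 in the combination (adjusted p = 0.140), each against DMSO, and neither passed. THY1 summed to 6 counts in the combination, 7 with tazemetostat, 4 with ipatasertib and 10 under DMSO, and no comparison of it passed in that fit. Differences in both genes were not detectable at this depth.

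**Figure D4:**
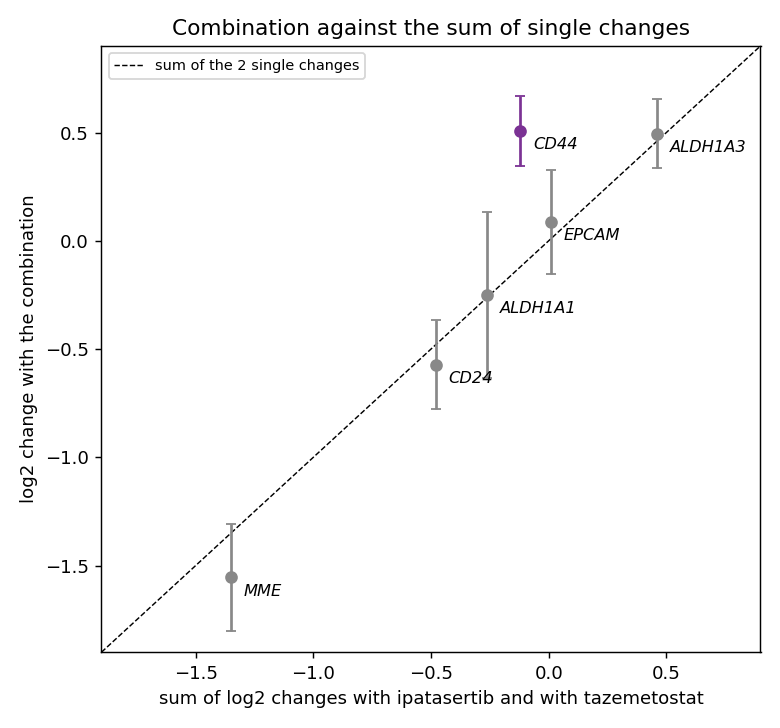
Log2 change in the combination against DMSO (vertical axis) beside the changes with each inhibitor added up on the log2 scale (horizontal axis) for the 6 tested markers. Bars are the 95% interval of the interaction, centred on the combination's value, and the dashed line is equality. CD44, at -0.12 and 0.51, is the marker whose bar does not reach the line.

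For each tested member the 3 genes with the most similar log2 CPM over the 12 libraries were listed, by Pearson r and as a description, since groups create much of such likeness. For CD44 they were NRP1 (r = 0.970), a coreceptor of semaphorins and VEGF, FOXI1 (r = 0.966), a forkhead factor, and ITGB3 (r = 0.962), the integrin beta 3 subunit. For ALDH1A3 they were C6orf223 (r = 0.990), B3GAT1 (r = 0.989), the enzyme of the HNK-1 glycan, and BTG2 (r = 0.989), an antiproliferative factor. MME was most like PDLIM5 (r = 0.991), COL12A1 (r = 0.988) and SPARC (r = 0.987), the last 2 being matrix proteins. CD24 was most like KPNA4 (r = 0.995), a nuclear import receptor, SOCS2 (r = 0.994), a suppressor of cytokine signalling, and PSMD12 (r = 0.994), a proteasome subunit. ALDH1A1 was most like SGCE (r = 0.961), BRD8 (r = 0.947) and COL10A1 (r = 0.942). EPCAM was most like TOMM20 (r = 0.962), RNF149 (r = 0.956) and USO1 (r = 0.938).

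ITGB3, an early marker of luminal progenitors in mice, was also highest in the combination. It averaged 7.73 ± 0.511 CPM in the combination, 1.97 ± 0.131 with tazemetostat, 1.70 ± 0.187 with ipatasertib and 2.16 ± 0.130 under DMSO (SD, n = 3 each). It was picked for its likeness to CD44, so this pattern is a description.

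The other aldehyde dehydrogenases, many but not all of which clear aldehydes from lipids, alcohol and amino acids, rose in most cases with ipatasertib. Of 14 tested, 8 were higher and 3 lower in the combination, 3 higher and 4 lower with tazemetostat, and 10 higher and 2 lower with ipatasertib, all against DMSO. Over all genes 36.5% were higher and 34.5% lower in the combination, 25.1% and 20.9% with tazemetostat, and 25.4% and 28.7% with ipatasertib, the background for this and the following lists. Their median log2 change was 0.29, -0.04 and 0.42 in that order, beside medians of 0.02, 0.02 and -0.01 over all genes. ALDH3B2 averaged 37.7 ± 3.07 CPM in the combination, 13.7 ± 1.10 with tazemetostat, 9.79 ± 0.929 with ipatasertib and 4.23 ± 0.457 under DMSO (SD, n = 3 each), and its log2 change in the combination was 3.15 (SE 0.10, edgeR adjusted p = 2.18e-15). ALDH3B1 rose by 1.09 (SE 0.08) in the combination and by 1.14 (SE 0.08) with ipatasertib, and had 0.01 (SE 0.08) with tazemetostat, which did not pass. ALDH3A1, a low gene, rose by 2.01 (SE 0.23) in the combination and by 1.46 (SE 0.25) with ipatasertib. Its rise of 0.71 (SE 0.25) with tazemetostat was lost without DMSO C (0.50), tazemetostat A (0.68) or tazemetostat B (0.55). ALDH1B1, a mitochondrial member, fell by 1.32 in the combination, 0.48 with tazemetostat and 0.84 with ipatasertib on the log2 scale.

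In the list of retinoid metabolism and retinoic acid response, 12 of 23 tested genes rose and 8 fell in the combination, 11 rose and 3 fell with tazemetostat, and 7 rose and 7 fell with ipatasertib, against DMSO. The medians were 0.21, 0.13 and -0.04. The 8 lower genes in the combination and the calls with ipatasertib are near the background shares. Without tazemetostat A and combination B, tazemetostat had 11 higher and 7 lower of 24, a median of 0.04. In that fit 57.9% of all genes were called with tazemetostat against DMSO, beside 46.0% with all libraries. RDH10, the retinol dehydrogenase that makes the substrate of the ALDH1A enzymes, averaged 177 ± 11.7 CPM in the combination, 37.4 ± 5.21 with tazemetostat, 117 ± 4.77 with ipatasertib and 27.3 ± 1.75 under DMSO (SD, n = 3 each). Its log2 change was 2.70 (SE 0.09, edgeR adjusted p = 1.92e-15), 0.45 (SE 0.09, edgeR adjusted p = 0.000314) and 2.10 (SE 0.09, edgeR adjusted p = 3.77e-13) in the same order of groups. RARRES1, named for its response to retinoids, averaged 2270 ± 344 CPM in the combination, 838 ± 75.5 with tazemetostat, 1140 ± 20.7 with ipatasertib and 468 ± 64.4 under DMSO. Its log2 changes of 2.28 (SE 0.10), 0.84 (SE 0.10) and 1.29 (SE 0.10) all passed. RBP4, a carrier of retinol, had 256 counts in the combination, 139 with tazemetostat, 24 with ipatasertib and 17 under DMSO, summed over 3 libraries. CRABP1, a cytosolic retinoic acid binding protein, had 62 counts in the combination, 39 with tazemetostat, 0 with ipatasertib and 0 under DMSO, summed over 3 libraries. RBP4, CRABP1, SPP1, DLL1, CXCR4, BCL11A and LGR5 were at or near 0 under DMSO. Such a gene passes the filter on low counts through the groups where it is high. Its direction against DMSO then follows from the filter, so only counts are given for these genes. They stand among the higher calls of their lists.

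Genes of hyaluronan synthesis and turnover and partners of CD44 were called lower more often than higher. Of 20 tested, 3 were higher and 11 lower in the combination, 4 higher and 11 lower with tazemetostat, and 2 higher and 10 lower with ipatasertib, with medians of -0.31, -0.24 and -0.23 against DMSO. HAS2, the main hyaluronan synthase of many cells, averaged 13.8 ± 1.02 CPM in the combination, 29.7 ± 2.11 with tazemetostat, 53.2 ± 2.32 with ipatasertib and 110 ± 3.42 under DMSO (SD, n = 3 each). Its log2 change was -2.99 (SE 0.08, edgeR adjusted p = 4.18e-17), -1.89 (SE 0.07, edgeR adjusted p = 6.01e-14) and -1.05 (SE 0.07, edgeR adjusted p = 1.97e-10) in the same order. KIAA1199, also named CEMIP, which takes part in hyaluronan breakdown, rose by 1.28 (SE 0.08), 0.38 (SE 0.08) and 0.36 (SE 0.08), and its interaction of 0.55 passed (SE 0.11, edgeR adjusted p = 0.00986). MMP14, a membrane metalloproteinase that can cleave CD44, fell by 0.98 in the combination and 1.19 with tazemetostat on the log2 scale. Its change of -0.23 with ipatasertib was lost under scaling by total counts (-0.11). Leaving out DMSO A, B or C, ipatasertib A or C, or combination C also ended that call, with values of -0.16 to -0.24. SPP1, the secreted CD44 ligand osteopontin, had 146 counts in the combination, 65 with tazemetostat, 22 with ipatasertib and 9 under DMSO, summed over 3 libraries.

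**Figure D5:**
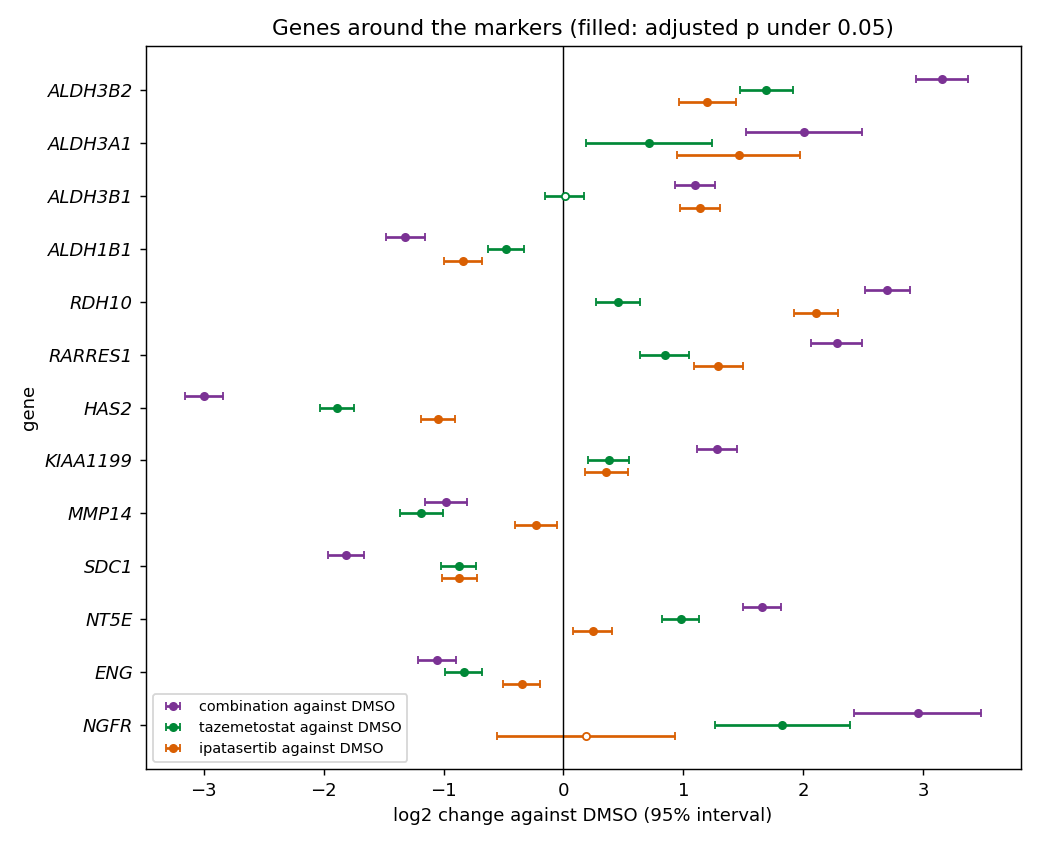
Log2 change against DMSO, with 95% intervals from the edgeR fit (n = 3 libraries per group), of aldehyde dehydrogenases, retinoid genes, hyaluronan genes and further stem and progenitor markers named in the text or the closing section. Filled points had an adjusted p under 0.05. RDH10 and RARRES1 lie right of 0 and HAS2 and SDC1 left of 0 in all 3 groups.

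Other markers of mammary stem cells and luminal progenitors were called higher more often than lower in the groups with tazemetostat. Of 25 tested, 14 were higher and 5 lower in the combination, 16 higher and 2 lower with tazemetostat, and 7 higher and 6 lower with ipatasertib, with medians of 0.78, 0.68 and 0.11 against DMSO. The counts with ipatasertib are near the background shares. PROCR, the protein C receptor that marks multipotent mammary cells in mice, averaged 32.2 ± 1.16 CPM in the combination, 34.3 ± 3.16 with tazemetostat, 30.1 ± 0.974 with ipatasertib and 32.2 ± 3.88 under DMSO (SD, n = 3 each) and did not pass in any comparison. It was not among the genes picked by size and is named because its antisense symbol is a listed member. CXCR4, the chemokine receptor, had 1005 counts in the combination, 206 with tazemetostat, 182 with ipatasertib and 24 under DMSO, summed over 3 libraries. NGFR, a neurotrophin receptor of basal cells, rose by 2.95 (SE 0.25) in the combination and 1.82 (SE 0.27) with tazemetostat. BCL11A, a transcription factor of luminal progenitors, had 135 counts in the combination, 94 with tazemetostat, 20 with ipatasertib and 16 under DMSO, summed over 3 libraries. DLL1, a Notch ligand, had 140 counts in the combination, 114 with tazemetostat, 3 with ipatasertib and 0 under DMSO, summed over 3 libraries. LGR5, named for its low counts, had 60, 40, 23 and 10 counts in the same order of groups. The higher calls of this list in the groups with tazemetostat include CXCR4, BCL11A, DLL1 and LGR5, and no count without them was made. In the interaction 2 of 25 were called higher (ITGB3 and SOX9) and 3 lower (SNAI2, TP63 and ABCG2). Over all genes 1.87% were called higher and 1.75% lower. ITGB3 was picked for its likeness to CD44 and the other 4 were named after their values were seen, so these calls are a description.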

How the data were processed

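Counts per gene were made by the authors from polyadenylated RNA of 12 libraries and deposited as raw counts, 1 file per library. The submitters' processing notes name hg19 as the build and HTSeq, STAR, SAMtools and DESeq2 as tools. Their versions, the annotation and whether counting used strand were not stated in them. The 5 summary lines per file, 29.8% to 38.6% of reads, were left out. Every file was matched to a labelled library, and a deposited table of normalised values was not used here.

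The tests used edgeR 4.0.16 under R 4.3.3. Genes were filtered with filterByExpr, scaled with TMM, and all 12 libraries entered 1 quasi-likelihood fit with a coefficient per group and no replicate block. Variation between replicates (the common coefficient that edgeR calls biological) came to 0.0645, and part of it may be technical. The fit was applied to 7 comparisons, which are all pairs of groups and the interaction, and was tested on simulated data. The SE was taken from the F statistic and the log2 change, and intervals are at 95%. Counts set the precision, at 22355242 to 49970540 gene counts per library.

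Alternatives were other scalings, DESeq2 1.42.0, no filter on low counts, fits of the groups compared alone, a replicate block, and fits without 1 library or without the pair that stands apart. The members and the 6 further gene lists were chosen with earlier results of these data known. From each list the 4 tested genes with the largest change in the combination against DMSO are named, and others as stated. Counts per list under the alternatives, and list medians without the pair of libraries, were added after seeing the data.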

Additional observations from a re-analysis of the deposited data

Results flagged for a closer look

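CD44 stood out because the effect of one inhibitor differed with the other present, by a direct test. Its log2 change in the combination exceeded the sum of the changes with each inhibitor by 0.63 (95% interval 0.47 to 0.79, edgeR interaction adjusted p = 7.09e-05, n = 3 libraries per group). Ipatasertib changed CD44 by 0.58 in the presence of tazemetostat and by -0.04 in its absence, and all 3 combination libraries were above the other 9.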

How the results depend on the processing

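Of 792 log2 changes of the 6 tested members under an alternative, 749 kept their side of the threshold, 13 lost a call and 30 gained one, and no called change turned its sign. The 13 were all of ALDH1A3 with ipatasertib against DMSO. Of 264 counts of called genes or members, 249 stayed within 1.5 times. The exceptions were these. Members called in the combination against tazemetostat numbered 3, but 5 under scaling by total counts and 3 to 5 over the fits without 1 library, the 5 without combination A. The main fit called 60.6% of all genes in that comparison, and the number of genes called there stayed within 1.5 times. Genes called in the interaction numbered 539, but 943 with DESeq2, 905 without a filter and 243 to 2443 over the fits without 1 library. Without tazemetostat A and combination B they numbered 4766, or 31.8% of all genes, beside 3.62% in the main fit. Of the 6 members, 3 were called without those libraries (CD44, CD24 and MME) in place of 1, which is no result about the members as a group. The interaction count was 1046 without tazemetostat A and 2443 without combination B. Counts per list stayed within 1.5 times in 753 of 792 cases. With the letters as a replicate block, the interaction had 753 genes and 1 member called. The labels do not say whether the letters pair libraries, and 3 libraries per group cannot settle it. Of 18 same-letter pairs, 2 had deviations correlated above 0.1 (range -0.0665 to 0.302). These were tazemetostat A with combination A (0.302) and tazemetostat B with combination B (0.207). Pairs with different letters ranged between -0.339 (tazemetostat A with combination B) and 0.184 (tazemetostat C with combination B). No library correlated best with its own letter in every other group. The cause of the changed counts was not tested. PROM1, THY1 and ALDH1A2 are limited by depth.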

Other observations

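Partners of EPCAM and CD24 and the proteases that process them were lower more often than higher with tazemetostat. Of 18 tested, 3 were higher and 5 lower in the combination, 3 higher and 11 lower with tazemetostat, and 3 higher and 4 lower with ipatasertib, with medians of -0.06, -0.22 and 0.04 against DMSO. Over all genes 36.5% were called higher and 34.5% lower in the combination, 25.1% and 20.9% with tazemetostat, and 25.4% and 28.7% with ipatasertib. CD9, a tetraspanin, averaged 595 ± 69.8 CPM in the combination, 347 ± 6.59 with tazemetostat, 429 ± 8.93 with ipatasertib and 284 ± 23.6 under DMSO (SD, n = 3 each), and its log2 changes of 1.07 (SE 0.07), 0.29 (SE 0.07) and 0.60 (SE 0.07) passed. CD82, another tetraspanin, averaged 42.9 ± 3.84, 40.0 ± 2.10, 73.0 ± 4.04 and 91.3 ± 7.78 CPM in the combination, tazemetostat, ipatasertib and DMSO groups, with log2 changes of -1.09 (SE 0.08), -1.19 (SE 0.08) and -0.32 (SE 0.08) that passed. TSPAN8, a marker of dormant mammary stem cells in mice, had 18 counts in the combination, 20 with tazemetostat, 43 with ipatasertib and 36 under DMSO, summed over 3 libraries. It is among the lower calls with tazemetostat, having passed the filter through groups where it was higher. That call was lost with DESeq2 (adjusted p = 0.0683). It was also lost in edgeR fits without a filter (adjusted p = 0.0505), without DMSO B (0.0987), without tazemetostat A (0.0636) and without tazemetostat A and combination B (0.0663). SIGLEC10, a receptor of CD24, had 30, 33, 14 and 18 counts in the combination, tazemetostat, ipatasertib and DMSO groups.

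Among other surface markers of stem cells and ectoenzymes, 6 of 18 tested were higher and 11 lower in the combination, 3 higher and 8 lower with tazemetostat, and 4 higher and 9 lower with ipatasertib, with medians of -0.32, -0.13 and -0.23 against DMSO. All calls together covered 71.0%, 46.0% and 54.1% of all genes in the same order. NT5E (CD73), which makes adenosine outside the cell, averaged 89.7 ± 7.90 CPM in the combination, 56.1 ± 2.84 with tazemetostat, 33.8 ± 0.981 with ipatasertib and 28.6 ± 2.17 under DMSO (SD, n = 3 each). Its log2 changes of 1.65 (SE 0.08), 0.98 (SE 0.07) and 0.24 (SE 0.08) passed, and so did its interaction of 0.44 (SE 0.10, edgeR adjusted p = 0.0234). SDC1, the proteoglycan syndecan 1, averaged 55.0 ± 5.16 CPM in the combination, 106 ± 7.98 with tazemetostat, 106 ± 4.21 with ipatasertib and 193 ± 5.46 under DMSO, with log2 changes of -1.81 (SE 0.07), -0.87 (SE 0.07) and -0.87 (SE 0.07) that passed. ENG, a coreceptor of TGF-beta, changed by -1.05 (SE 0.08), -0.83 (SE 0.07) and -0.35 (SE 0.07) in the combination, tazemetostat and ipatasertib groups, all passing. TSPAN33, a tetraspanin, rose by 2.83 (SE 0.24) in the combination and 2.22 (SE 0.24) with tazemetostat.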
